A study of Mus musculus with 2 samples.

Results

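The neutrophil-attracting CXC chemokines are described here in the adult mouse mammary gland as 6 genes, chosen by name with earlier results of these data known. They are the ligands Cxcl1, Cxcl2, Cxcl3, Cxcl5 and Cxcl15 and the receptor Cxcr2, out of 32285 genes counted, and all 6 had at least 1 UMI (unique molecular identifier, 1 per captured transcript molecule) in the retained cells. Mammary glands of adult wild-type female mice, 9 to 10 weeks old by the labels, were dissociated, sorted and sequenced as 10x Genomics single cell libraries. The library labelled Ctrl came from control mice. The library labelled CL came from mice that had received repeated intraperitoneal injections of clodronate liposomes, vesicles that release a toxic drug inside the phagocytes that engulf them, and its tissue is labelled macrophage-depleted. Both libraries held cells gated against CD31 and TER119, and how many mice were pooled in each is not given in the sources used here. Each group is 1 library, so the differences below could not be checked against replicates, no test was made, and every interval is an exact 95% interval that covers counting error only.

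These chemokines are small secreted proteins of the CXC family. Those with a glutamate-leucine-arginine (ELR) motif before the first cysteines bind Cxcr2, a G protein-coupled receptor that guides neutrophils from the blood into tissue. Cxcl1, Cxcl2 and Cxcl3 are the mouse GRO chemokines, which many cell types switch on within hours of inflammatory signals such as IL-1 and TNF through the transcription factor NF-kB. Cxcl5, also called LIX, is best known from epithelium and stroma, and Cxcl15, or lungkine, from the epithelium of the lung. Csf3, encoding the growth factor G-CSF, raises neutrophil output from the bone marrow and is treated below among other genes of neutrophil recruitment.

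The 5 ligand genes lie in one cluster on chromosome 5, all on the plus strand, within 146579 bases (GENCODE M21, GRCm38, the same assembly as mm10). Their order is Cxcl5 (chr5:90759360-90761624), Cxcl3 (chr5:90786103-90789600), Cxcl15 (chr5:90794534-90803067), Cxcl1 (chr5:90891241-90893115) and Cxcl2 (chr5:90903871-90905938). Each has up to 4 annotated exons. Cxcr2 lies apart on chromosome 1 (chr1:74153989-74161246). The promoters of 4 ligands are shown so that those of Cxcl1 and Cxcl2, held mainly by secretory-lineage luminal-like cells, and of Cxcl3 can be compared with that of Cxcl15, held mainly by hormone-responsive luminal-like cells. Each line gives the 120 bases directly before the earlier of the RefSeq and GENCODE starts, plus strand, from RefSeq on GRCm38.p6, and capitals mark matches to GGANNTTCC (the ends of a kB site), TATAAA and ATAAAAGG, searched on both strands.
Cxcl1, chr5:90891121-90891240: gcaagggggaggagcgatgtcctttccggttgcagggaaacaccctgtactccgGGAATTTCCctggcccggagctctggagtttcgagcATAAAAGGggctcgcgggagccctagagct
Cxcl2, chr5:90903751-90903870: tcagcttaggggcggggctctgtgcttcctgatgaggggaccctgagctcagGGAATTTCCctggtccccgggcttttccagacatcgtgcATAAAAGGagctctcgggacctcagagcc
Cxcl3, chr5:90785981-90786100: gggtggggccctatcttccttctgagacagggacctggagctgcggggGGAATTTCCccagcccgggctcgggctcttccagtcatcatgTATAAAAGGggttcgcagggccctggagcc
Cxcl15, chr5:90794414-90794533: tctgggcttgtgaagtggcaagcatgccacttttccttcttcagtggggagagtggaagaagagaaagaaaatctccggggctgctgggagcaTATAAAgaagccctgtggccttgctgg

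The same 9 letters, GGAATTTCC, stood in the promoters of Cxcl1, Cxcl2 and Cxcl3, beginning 66, 68 and 72 bases before the start. This match fits GGANNTTCC read on either strand, and 1178 of 32851 promoters (3.59%) held a match within 250 bases. ATAAAAGG began 30, 29 and 29 bases before the start in these genes, and 1.54% of all promoters held it. In Cxcl3 it overlapped TATAAA, which 12.4% of promoters held. The Cxcl15 window held TATAAA, beginning 27 bases before the start, and no match to the other letters. A match is a description of the letters and not of a bound site, and the letters searched were chosen after the sequences were seen. Reads of similar genes can be split between them by mapping. The longest exact run shared by transcripts of 2 members was 157 bases, between Cxcl2 and Cxcl3, and it ended 1849 bases before the end of the Cxcl2 transcript concerned. In the last 500 bases of the 11 annotated ligand transcripts, where 3′ libraries read, no window of 98 bases was found whole in another member, except for 4.33% of the windows of 1 short Cxcl2 transcript.

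After filtering, the library labelled Ctrl kept 5937 cells and the one labelled CL 8826, with medians of 11351 and 10337 UMIs per cell. Of the deposited barcodes, 18 stood on the cell lists of both libraries. Clusters were named from marker genes, and the names are written "-like" because they were rebuilt here. A sum over 9 macrophage markers was higher in the library labelled CL (215 against 67.4 CPM, UMIs per 1000000 UMIs of the cells counted) and 8 of the 9 were higher there, against its label of macrophage depletion, so the libraries are called by their labels throughout. Secretory-lineage luminal-like cells, the precursors of milk-producing cells, numbered 2674 and 3914 (Ctrl, then CL), and hormone-responsive luminal-like cells, which carry the hormone receptors, 2051 and 2515. There were 408 and 447 basal-like cells (contractile myoepithelium and its progenitors), 252 and 276 fibroblast-like, 52 and 55 endothelial-like, 57 and 236 macrophage-like, and 212 and 725 T and NK-like cells. Of the macrophage-like cells, 16 and 193 lay in cluster 113, led by Lyz2. Cluster 101, led by antigen presentation and complement genes, held 33 and 41, and cluster 117 held 8 and 2. The neutrophil-like cells, the targets of these chemokines, numbered only 2 and 18. Endothelial-like cells should have been removed by the gate and were few.

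Free RNA in the suspension adds UMIs to every cell. Droplets of 100 to 300 UMIs, which hold no cell, contained Cxcl1 at 326 CPM in Ctrl and 388 CPM in CL, Cxcl2 at 215 and 305 CPM, and Cxcl15 at 153 and 130 CPM. They held Cxcl3 at only 5.72 and 3.33 CPM and Cxcl5 at 7.80 and 4.32 CPM. T and NK-like cells, which should lack Cxcl1 and Cxcl15, carried Cxcl1 at 18.7 and 26.0 CPM and Cxcl15 at 7.47 and 8.94 CPM. The free RNA was estimated at 6.67% and 6.64% of the UMIs of a cell, so droplet levels describe the free RNA itself and cell levels below them can still lie above what it adds. Levels near those of the T and NK-like cells are not read as expression below.

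Cxcl1 and Cxcl2 were held mainly by secretory-lineage luminal-like cells. This class contained 35.5% of all UMIs in Ctrl but 66.0% of the Cxcl1 UMIs and 76.5% of the Cxcl2 UMIs. In CL it contained 36.7% of all UMIs, 66.9% of the Cxcl1 UMIs and 70.0% of the Cxcl2 UMIs. Cxcl15 lay mostly in the other luminal lineage, where hormone-responsive luminal-like cells held 91.1% of its UMIs in Ctrl and 79.8% in CL, while clusters left unnamed held 6.83% and 17.7%. Macrophage-like cells held the largest share of the Cxcl3 UMIs in both libraries (60.9% and 46.9%), from a class that made up 0.507% and 1.79% of all UMIs.

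**Figure D1:**
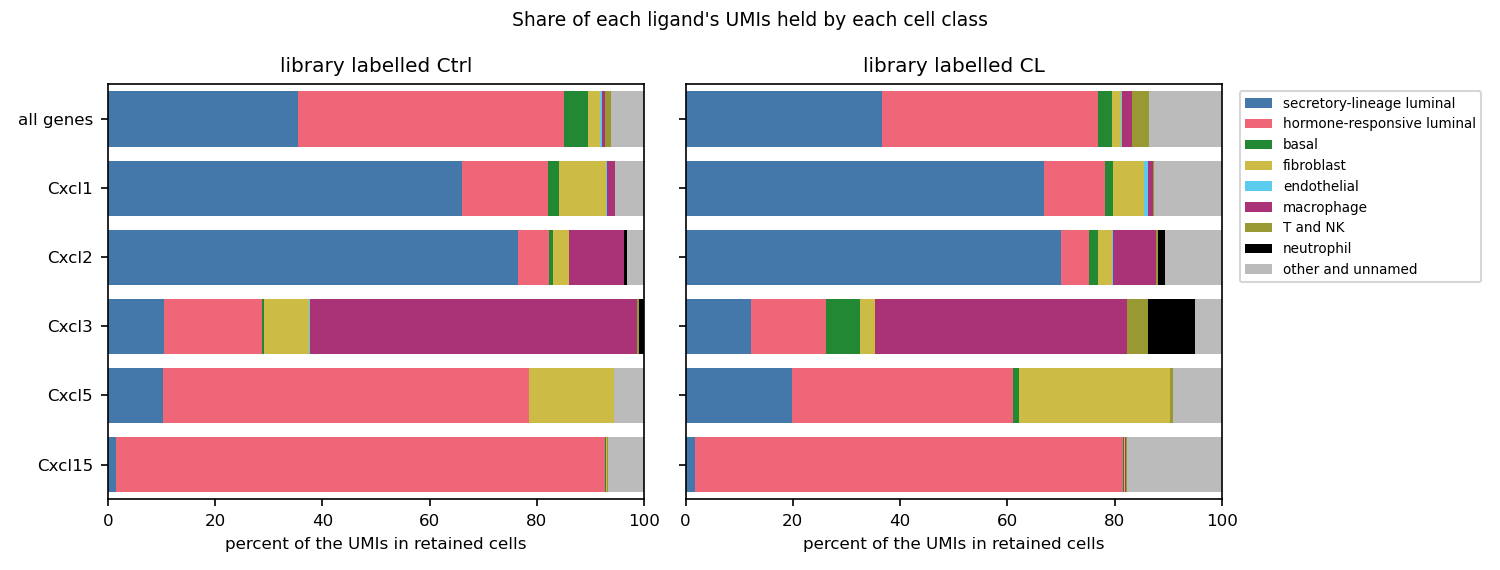
Percent of the UMIs of each ligand (bars) held by each cell class (colours) in the retained cells of the library labelled Ctrl (left) and CL (right), with the share of all UMIs in the top bar. Secretory-lineage luminal-like cells hold 66.0% and 66.9% of the Cxcl1 UMIs and hormone-responsive luminal-like cells hold 91.1% and 79.8% of the Cxcl15 UMIs.

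Cxcl1 was highest in fibroblast-like cells in both libraries. Its level there was 1407 CPM (95% interval 1355.5 to 1460.5) in Ctrl and 1767 CPM (1708 to 1827) in CL. In secretory-lineage luminal-like cells it was 685 CPM (676 to 694) in Ctrl and 896 CPM (887 to 905) in CL. Hormone-responsive luminal-like cells stood at 119 and 139 CPM and basal-like cells at 162 and 271 CPM, below the droplets but above the T and NK-like cells. Macrophage-like cells stood at 1005 CPM in Ctrl and 258 CPM in CL, and endothelial-like cells at 298 and 1142 CPM, a log2 ratio of 1.94 that was 0.88 with each cell named alone and 0.89 with a minimum of 1000 genes per cell. Of the endothelial-like cells, cluster 103 (33 Ctrl and 44 CL cells) stood at 510 and 1393 CPM, a log2 ratio of 1.45 (1.08 to 1.84). Cluster 109 (19 and 11 cells) stood at 35.6 and 15.9 CPM, from 4 and 1 UMIs. In this class 3.01% of 2060 genes were at least 2-fold higher and 2.67% lower in CL. In the endothelial-like cells the secretory-lineage markers also summed to 485 and 916 CPM, and their part in the ratio was not tested. The order of the classes therefore differed between the libraries below the fibroblast-like cells, and basal-like and macrophage-like cells overlapped in their intervals in CL.

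In all retained cells Cxcl1 stood at 368 CPM (Ctrl) and 491 CPM (CL), a log2 ratio of 0.42 (0.40 to 0.44). Without clusters 2 and 10, the large clusters that came mostly from 1 library, it was 0.069. Leaving them out takes hormone-responsive cells mostly from Ctrl and secretory-lineage cells mostly from CL, so the mix of classes changes too. Within the classes the ratio was then 0.41 in secretory-lineage and 0.23 in hormone-responsive luminal-like cells. The library labelled CL was higher by 0.39 on the log2 scale in secretory-lineage luminal-like cells, by 0.22 in hormone-responsive luminal-like, by 0.75 (0.59 to 0.90) in basal-like and by 0.33 in fibroblast-like cells. With each cell named alone the hormone-responsive ratio was 0.56, and the fibroblast-like ratio was 0.59 with a minimum of 1000 genes per cell. Of the 6 secretory-lineage clusters, 4 had an interval above 0 and 1, of 21 Ctrl and 936 CL cells, an interval below 0, with a range of -0.40 to 0.51. With each cell thinned to 5070 UMIs, 52.9% (50.9 to 54.9) of the secretory-lineage cells in Ctrl and 58.3% (56.7 to 60.0) in CL had a UMI of Cxcl1, and without thinning 59.5% and 64.8%. The fibroblast-like clusters were less alike. Cluster 116 had the highest level, 5763 CPM in Ctrl and 5235 CPM in CL, cluster 104 stood at 4083 and 2641 CPM, and cluster 106 at 244 and 418 CPM. In the fibroblast-like cells the secretory-lineage markers summed to 1202 and 2440 CPM, the hormone-responsive markers to 802 and 1624 CPM and the fibroblast markers to 40776 and 23861 CPM, and their part in the ratios was not tested. The free RNA moved the same way, since Cxcl1 was also higher in the CL droplets, and its part in the small ratios was not tested beyond a subtraction of the droplet profile.

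Cxcl2 was highest, per UMI, in myeloid cells. The 2 neutrophil-like cells of Ctrl held 139 of its UMIs (25933 CPM), 130 of them in 1 cell. The 18 of CL held 904 (13706 CPM), and 17 of the 18 had at least 1 UMI. In macrophage-like cells it stood at 6984 CPM (6738 to 7236) in Ctrl and 2382 CPM (2317 to 2449) in CL. Secretory-lineage luminal-like cells followed with 759 CPM (749 to 768) in Ctrl and 1001 CPM (992 to 1011) in CL, and fibroblast-like cells with 437 and 854 CPM. Hormone-responsive luminal-like cells stood at 40.5 and 68.9 CPM, and in Ctrl did not differ beyond counting error from T and NK-like cells at 42.0 CPM. That T and NK-like level was uneven, with 21 of its 45 UMIs in 1 cell, so for Cxcl2 it may lie above what free RNA adds.

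In all retained cells Cxcl2 stood at 352 CPM (Ctrl) and 524 CPM (CL), a log2 ratio of 0.58 (0.56 to 0.60), and 0.14 without clusters 2 and 10. It was higher in the library labelled CL in all 4 epithelial and fibroblast classes, by 0.40 in secretory-lineage luminal-like, 0.77 in hormone-responsive luminal-like, 2.17 (1.97 to 2.38) in basal-like and 0.97 (0.85 to 1.09) in fibroblast-like cells. Without clusters 2 and 10 the secretory-lineage ratio was 0.41 and the hormone-responsive ratio 0.91. With each cell named alone the secretory-lineage ratio was 0.21, and as a mean of each cell's CPM the fibroblast-like ratio was 0.475. The hormone-responsive ratio starts from a level at that of the T and NK-like cells and rests on few cells, since the 1% of cells with most held 45.1% and 51.7% of the UMIs and 12.6% and 13.5% of the thinned cells had one, with overlapping intervals. It was 1.48 with each cell named alone and 0.90 with free RNA subtracted. The basal-like difference rests on a few cells too, and was 1.403 with no mitochondrial limit and 1.44 as a mean of each cell's CPM. Only 53 of 408 Ctrl cells and 83 of 447 CL cells had a UMI, 63.0% of the CL UMIs lay in the 1% of cells with most, and 1 cell held 313 of the 921. The 9 macrophage markers in the basal-like cells summed to 2.90 and 18.2 CPM, a log2 ratio of 2.65 (1.71 to 3.73), and their part in the Cxcl2 ratio was not tested. Basal-like Cxcl2 in CL, 294 CPM, was no higher than the droplets at 305 CPM but above the T and NK-like cells at 42.8 CPM. In the secretory lineage the ratio was near 0 in clusters 5 and 7 (0.018 and 0.078) and 1.30 in cluster 8, at 456 and 1121 CPM. It was 1.37 in cluster 10, which held only 21 Ctrl cells. After thinning, 33.7% (31.8 to 35.6) of the secretory-lineage cells in Ctrl and 39.1% (37.5 to 40.7) in CL had a UMI of Cxcl2, and without thinning 39.0% and 45.3%. In fibroblast-like cells it was highest in cluster 116, at 5233 and 3553 CPM, where the ratio was -0.56. Cxcl2 stood at 65.3 and 952 CPM in cluster 102 and at 20.01 and 272 CPM in cluster 106. Cluster 104, at 1223 and 1240 CPM, had a ratio of 0.02 (-0.16 to 0.20). Cluster 105, at 188 and 31.3 CPM, had a ratio of -2.59 (-4.07 to -1.43).

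**Figure D2:**
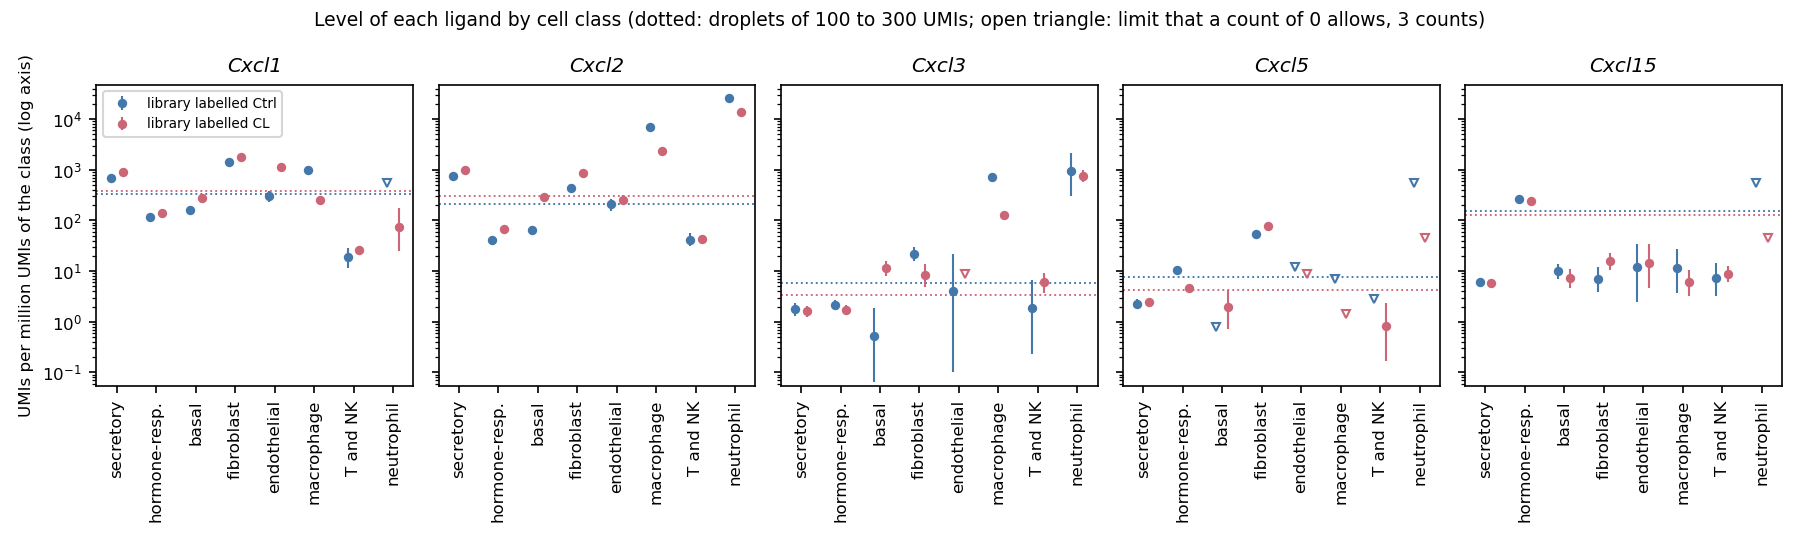
Level of each ligand as CPM of the class on a log axis, by cell class, for the library labelled Ctrl (blue) and CL (red), with exact 95% Poisson intervals as bars. Dotted lines give the level in droplets of 100 to 300 UMIs, and open triangles the limit that a count of 0 allows (3 counts). Among the named classes, Cxcl15 lies above its dotted lines only in hormone-responsive luminal-like cells, and Cxcl3 is highest in macrophage-like and neutrophil-like cells.

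Cxcl3 was highest, per UMI, in myeloid cells, with 511 UMIs in Ctrl and 571 in CL over all retained cells. Its level was 712 CPM (635 to 796) in the macrophage-like cells of Ctrl and 127 CPM (113 to 144) in those of CL, and 933 and 758 CPM in neutrophil-like cells. Among neutrophil-like cells of CL, 49 of its 50 UMIs were in 1 cell. In secretory-lineage and hormone-responsive luminal-like cells it stood at 1.62 to 2.18 CPM in either library, below the droplets. These large classes still held 10.6% and 18.2% of its UMIs in Ctrl and 12.3% and 14.0% in CL. Up to 13 UMIs lay in 1 secretory-lineage cell and up to 15 in 1 hormone-responsive cell. Some values of the other classes rest mostly on 1 cell as well. In basal-like cells 35 of the 36 UMIs in CL were in 1 cell, against 2 UMIs in Ctrl, and all 22 UMIs in the T and NK-like cells of CL were in 1 cell. In fibroblast-like cells 35 of 43 UMIs in Ctrl came from 1 cell. The 16 in CL lay in 5 cells, with at most 7 in 1 of them. Over all retained cells the log2 ratio was -0.29 (-0.46 to -0.11).

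Cxcl5 was rare, with 666 UMIs in Ctrl and 536 in CL. Fibroblast-like cells had the highest level, 53.5 CPM (43.8 to 64.8) in Ctrl and 78.8 CPM (66.7 to 92.4) in CL. Within them 58 of 106 UMIs in Ctrl and 70 of 151 in CL lay in cluster 116, 40 cells led by Ccl2, Apod and Ccl11, at 903 CPM in Ctrl and 1213 CPM in CL. Hormone-responsive luminal-like cells came next with 10.6 CPM (9.67 to 11.7) in Ctrl and 4.68 CPM (4.08 to 5.34) in CL. In this class 94 of 2051 Ctrl cells (4.58%) and 67 of 2515 CL cells (2.66%) had a UMI, and the cell with most held 51. With each cell thinned to 7262 UMIs the shares were 2.84% (2.13 to 3.70) and 1.55% (1.08 to 2.14). The 1% of cells with most held 76.7% of the UMIs in Ctrl and 81.0% in CL. Macrophage-like cells had 0 UMIs of Cxcl5 in both libraries, which allows up to 6.87 CPM (Ctrl) and 1.43 CPM (CL) (3 counts per library).

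Cxcl5 was the only ligand more than 2-fold lower in CL in a luminal class. Its log2 ratio in hormone-responsive luminal-like cells was -1.18 (-1.42 to -0.95), and 1.56% of the 13059 genes with at least 50 UMIs in that class were at least 2-fold lower in CL, while 0.704% were at least 2-fold higher. The ratio was uneven among clusters. It was -2.26 (-2.75 to -1.78) in cluster 12, at 12.4 and 2.58 CPM, -1.98 (-3.87 to -0.60) in cluster 2, which held 198 of the 454 UMIs in Ctrl and 4 in CL, and 0.11 (-0.28 to 0.50) in cluster 1, at 6.65 and 7.18 CPM. The cells of cluster 16, led by division genes among others, were each assigned alone to an epithelial class. That cluster, of 108 Ctrl and 61 CL cells, held Cxcl5 at 24.2 and 11.1 CPM, a ratio of -1.12 (-1.83 to -0.45). In fibroblast-like cells the ratio was 0.56 (0.19 to 0.93), where 3 cells held 57.5% of the UMIs in Ctrl and 3 held 53.0% in CL. It was -0.35 (-0.95 to 0.27) in cluster 104 and 0.43 (-0.10 to 0.95) in cluster 116. Cluster 102 had 0 UMIs in 53 Ctrl cells and 20 UMIs, 34.4 CPM, in 87 CL cells, and the interval of its ratio began at 1.81. In the secretory lineage, at 2.26 and 2.46 CPM, it was 0.12 (-0.33 to 0.58), and -0.96 without cluster 10. Over all retained cells it was -0.76 (-0.93 to -0.60) from pooled UMIs, and -0.091 as a mean of each cell's own CPM.

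Cxcl15 marked the hormone-responsive luminal-like cells. Its level in them was 262 CPM (257 to 267) in Ctrl and 243 CPM (238 to 247) in CL, and every other named class with at least 50 cells in each library lay between 5.89 and 15.7 CPM in both libraries. After thinning each cell to 7262 UMIs, 64.5% (62.3 to 66.7) of the Ctrl cells and 68.0% (66.0 to 69.9) of the CL cells of the class had a UMI of Cxcl15. Without thinning the shares were 80.2% and 81.6%. In secretory-lineage cells thinned to 5070 UMIs they were 2.72% and 3.07%. At the thinned depth the median hormone-responsive cell held 1 UMI and the 90th percentile was 5 UMIs in both libraries, a flatter spread than that of Cxcl1 or Cxcl2.

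The Cxcl15 ratio of the class, -0.11 (-0.14 to -0.07), hid opposite values in its clusters. In cluster 1, of 709 Ctrl and 972 CL cells, it stood at 221 CPM (Ctrl) and 287 CPM (CL), higher by 0.37 on the log2 scale. In cluster 12, led by Upk3a and Fgb, it was 162 and 222 CPM, higher by 0.45. In cluster 2, led by Gpx3 and Aoc1 and made of 975 Ctrl but only 118 CL cells, it was 345 and 222 CPM, a log2 ratio of -0.64. Without cluster 2 the ratio of the class was 0.32, so its sign rested on that cluster, and over all retained cells it turned from -0.22 to 0.63 when both large clusters of mostly 1 library were left out.

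**Figure D3:**
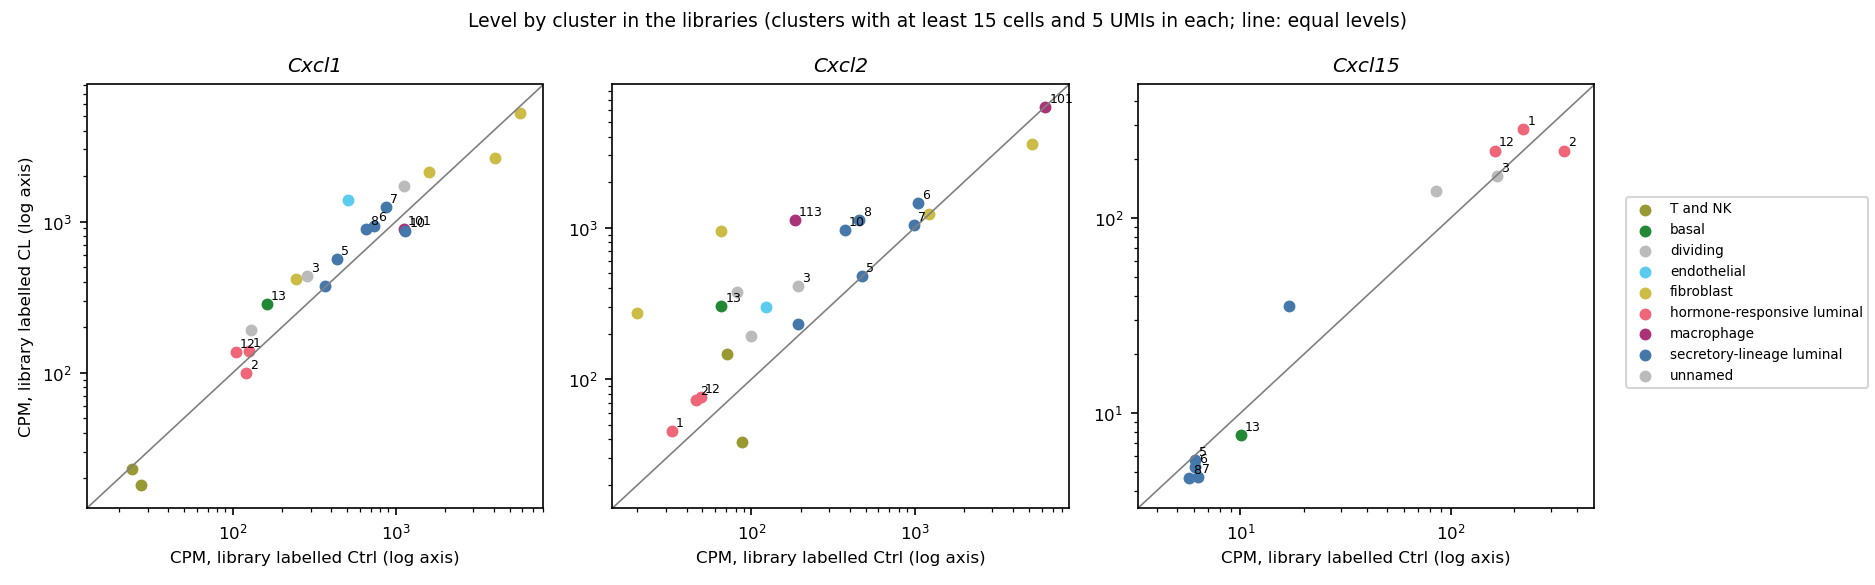
Level of Cxcl1, Cxcl2 and Cxcl15 by cluster in the library labelled Ctrl (horizontal, CPM, log axis) and CL (vertical, CPM, log axis), for clusters with at least 15 cells and 5 UMIs in each library, coloured by class and numbered where they hold at least 500 cells or are macrophage-like. On the grey line the levels are equal. For Cxcl15, clusters 1 and 12 lie above the line and cluster 2 below it, at 345 CPM in Ctrl and 222 CPM in CL.

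Cxcr2, the receptor, was at the limit of detection, with 23 UMIs in Ctrl and 18 in CL. Its log2 ratio over all retained cells was -0.80 (-1.78 to 0.15). Neutrophil-like cells gave 1 UMI in the 2 Ctrl cells and 4 UMIs in the 18 CL cells, 60.6 CPM (16.5 to 155) in CL. In the luminal classes it was between 0.148 and 0.295 CPM, from 7 to 9 UMIs per class and library. The droplets held 0.0907 and 0.180 CPM from only 1 and 2 UMIs, too few to set a background. Macrophage-like cells had 0 UMIs in both libraries, which allows up to 6.87 CPM (Ctrl) and 1.43 CPM (CL).

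Macrophage-like cells were the class in which the GRO chemokines were lower in CL. The log2 ratio was -1.96 (-2.15 to -1.78) for Cxcl1, -1.55 (-1.62 to -1.49) for Cxcl2 and -2.48 (-2.72 to -2.24) for Cxcl3, all 3 more than 2-fold lower. In this class 5.62% of 5022 genes were at least 2-fold lower and 10.5% at least 2-fold higher in CL. Different clusters made up most of the class in the libraries. Cluster 101, led by antigen presentation and complement genes, had 33 Ctrl and 41 CL cells and held Cxcl2 at 6305 CPM in Ctrl and 6283 CPM in CL, a log2 ratio of -0.00 (-0.09 to 0.08). Its Cxcl1 ratio was -0.33 and its Cxcl3 ratio -2.00 (-2.38 to -1.62). Cluster 113, of 16 Ctrl and 193 CL cells, ran the other way, with Cxcl2 at 184 CPM in Ctrl and 1119 CPM in CL (2.60, 1.95 to 3.34) and Cxcl3 at 19.4 and 108 CPM (2.47, 0.60 to 5.53, from 2 UMIs in Ctrl). Cluster 117, of 8 Ctrl and 2 CL cells, held Cxcl2 at 26438 and 10834 CPM, and its 8 Ctrl cells carried 1218 of the 3051 Cxcl2 UMIs, 114 of the 439 Cxcl1 UMIs and 114 of the 311 Cxcl3 UMIs of the class. Without it the class ratios were -1.73 for Cxcl1, -1.004 (-1.08 to -0.93) for Cxcl2 and -2.04 for Cxcl3. The 9 basal markers summed to 547 and 47.5 CPM in the macrophage-like cells and the 5 erythroid markers to 0 and 427 CPM, with all 5 higher in CL, and their part in the ratios was not tested. Of the 10 dissociation stress genes, 4 were at least 2-fold lower in the macrophage-like cells of CL and their sum was lower by a log2 ratio of -0.95, and their part in the result was not tested.

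**Figure D4:**
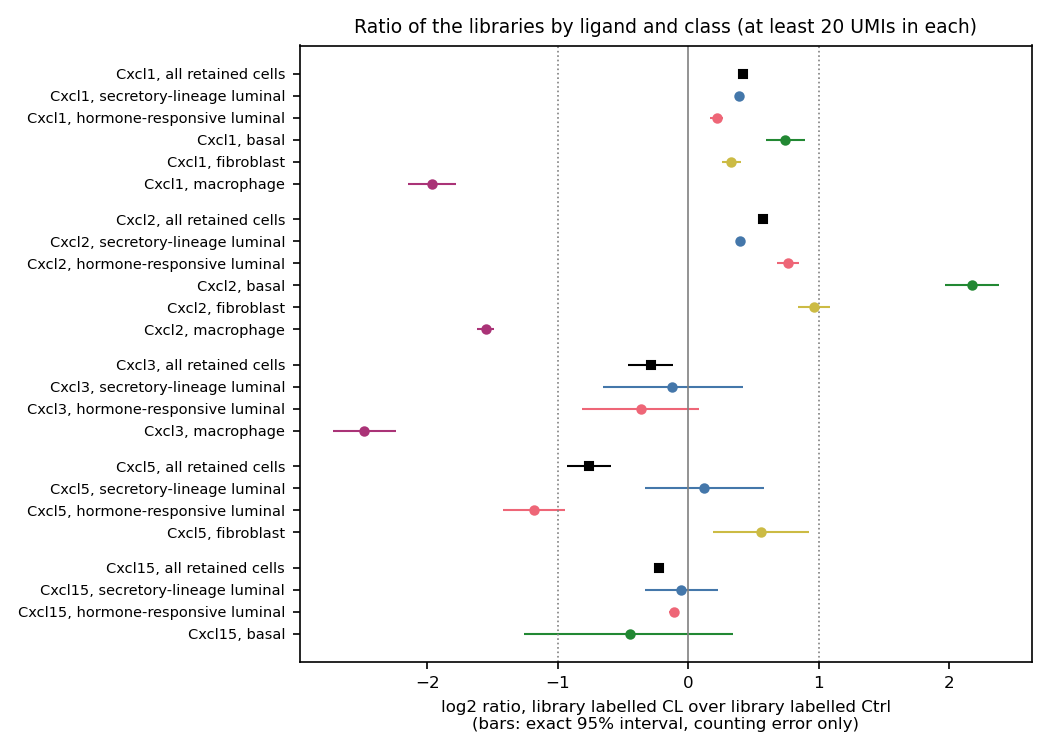
Log2 ratio of the library labelled CL over the library labelled Ctrl for each ligand in all retained cells (black squares) and by class (coloured circles), shown where each library held at least 20 UMIs. Bars are exact 95% intervals for counting error only, and dotted lines mark 2-fold. Cxcl1 and Cxcl2 lie right of 0 in the epithelial and fibroblast-like classes and left of -1 in macrophage-like cells.

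Past 2-fold, few members stood apart in the larger classes. In all retained cells 0 of the 5 members with at least 50 UMIs passed 2-fold, where 2.95% of 15520 genes were higher and 2.74% lower. In secretory-lineage luminal-like cells it was also 0 of 5, against 1.15% higher and 1.29% lower of 12362 genes. In basal-like cells Cxcl2 alone of 3 passed, against 1.3% higher and 0.885% lower of 8472 genes. In fibroblast-like cells Cxcl3, with the single cell named above, was the 1 of 4 that passed, downwards, against 2.76% higher and 2.63% lower of 7186 genes. How far 2 untreated libraries would differ was not measured.

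In the secretory-lineage, hormone-responsive and fibroblast-like cells, Cxcl2 was found more often in cells with Cxcl1 than in cells without it. In basal-like cells the intervals of the 2 shares overlapped in both libraries. The shares were 7.35% (2.43 to 16.3) and 5.15% (3.03 to 8.12) in Ctrl. In CL they were 19.1% (11.5 to 28.8) and 7.99% (5.24 to 11.6). After thinning to 5070 UMIs, 596 of 1281 secretory-lineage cells with Cxcl1 in Ctrl (46.5%, 43.8 to 49.3) also had Cxcl2, against 19.3% (17.0 to 21.7) of the 1142 cells without it. In CL the shares were 50.6% and 23.0%. In fibroblast-like cells they were 20.4% and 4.84% in Ctrl and 35.0% and 7.94% in CL. In the hormone-responsive lineage they were closer, 17.2% and 11.0% in Ctrl and 19.5% and 11.1% in CL. Cxcl15 was found in 71.4% of the hormone-responsive cells with Cxcl1 and 62.2% of those without it in Ctrl, and in 70.2% and 67.0% in CL. In Ctrl 48 of the 53 cells with Cxcl5 (90.6%, 79.3 to 96.9) also had Cxcl15, against 63.8% of cells without Cxcl5, and in CL it was 71.4% of 35 cells against 67.9%.

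**Figure D5:**
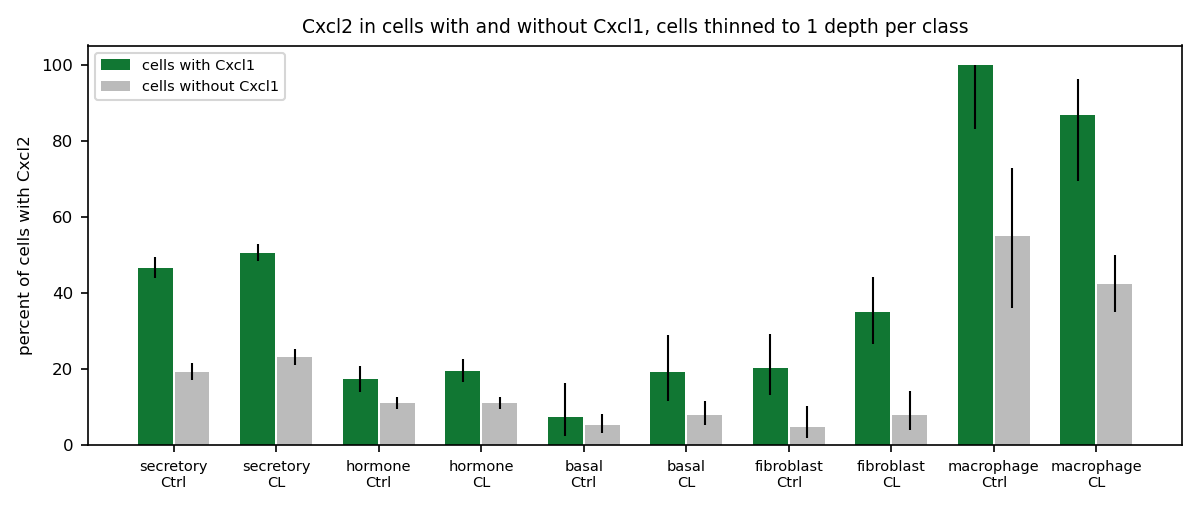
Percent of cells with a UMI of Cxcl2 among cells with (green) and without (grey) a UMI of Cxcl1, by class and library, after thinning all cells of a class to 1 depth, with exact 95% binomial intervals. In secretory-lineage luminal-like cells the shares are 46.5% and 19.3% in Ctrl and 50.6% and 23.0% in CL.

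Both transcripts were very unevenly spread over cells of 1 class. In secretory-lineage cells thinned to 5070 UMIs the median cell held 1 UMI of Cxcl1 and 0 of Cxcl2, while the highest held 87 and 156 UMIs in Ctrl and 121 and 242 UMIs in CL. The variance over cells was 13.3 times the mean for Cxcl1 and 31.0 times for Cxcl2 in Ctrl, and 17.4 and 44.7 times in CL, where 1 is the value of evenly expressed transcripts under random sampling. For Cxcl15 in hormone-responsive cells it was 3.23 and 2.64 times. The balance of the pair also changed with the class. There were 1.11 and 1.12 Cxcl2 UMIs per Cxcl1 UMI in secretory-lineage cells, 0.339 and 0.497 in hormone-responsive, 0.311 and 0.483 in fibroblast-like and 6.95 and 9.25 in macrophage-like cells. The libraries were less alike in basal-like cells (0.403 and 1.08) and endothelial-like cells (0.693 and 0.221), in opposite directions. The droplets held 0.658 and 0.785.

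Over the 26 clusters of at least 50 cells, with both libraries pooled, the levels of the ligands on the log2(CPM + 1) scale followed different genes, given here as a description over clusters that share libraries and cell lineage. Cxcl1 and Cxcl2 correlated with each other (Pearson r = 0.75), and their r with Cxcl15 was -0.12 and -0.36. The genes most like Cxcl15 were Wfdc2, Gipc2, Fam25c, Tspan1 and Wnt4 (r = 0.96 to 0.97), of which Wnt4 encodes a secreted factor known downstream of the progesterone receptor. Those most like Cxcl1 were Cd81, Rhoj, Phf11d, Sash1 and Trib1 (0.87 to 0.93), and those most like Cxcl2 were Srxn1, Cst3, Rab7b, Cxcl16 and Psmd11 (0.84 to 0.88). Cxcl3 was most like Nlrp3, Csf1r, Il10, Ly86 and Gpr35 (0.86 to 0.89), of which Nlrp3 is an inflammasome sensor and Csf1r the receptor for the macrophage growth factor. Cxcl5 was most like C2, Clec11a, Il33, Sfxn1 and Gfpt2 (0.68 to 0.77).

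Other genes of neutrophil recruitment were counted beside the members. Of 18 such genes in all retained cells, 14 had at least 50 UMIs, 7 were at least 2-fold higher in CL and 0 lower (2.95% and 2.74% over all genes), and their median log2 ratio was 0.89 against -0.045 over all genes. These counts include genes of the neutrophils themselves, whose 10 markers together reached 24.9 CPM (Ctrl) and 118 CPM (CL), with 9 of the 10 higher in CL. In secretory-lineage luminal-like cells 1 of 5 such genes passed 2-fold upwards (1.15% over all genes), Csf3, at 320 CPM in Ctrl and 798 CPM in CL, a log2 ratio of 1.32 (1.28 to 1.35). T and NK-like cells carried Csf3 at 11.2 and 26.0 CPM, a log2 ratio of 1.21 (0.34 to 2.22). Hormone-responsive luminal-like cells, at 21.3 and 40.9 CPM with 0.94 (0.83 to 1.06), were within 2-fold of them, and this ratio is not read as a difference in expression. Basal-like cells stood at 41.6 and 77.0 CPM, with 0.89. In fibroblast-like cells it was 13.1 and 127 CPM, with 3.27 (2.68 to 3.91). The Ctrl level, near that of the T and NK-like cells, is not read as expression. The 8 secretory-lineage markers in the fibroblast-like cells summed to 1202 and 2440 CPM, and their part in the Csf3 ratio was not tested. Cluster 10, of which Csf3 is a leading gene, held 21 Ctrl and 936 CL cells, and without it the secretory-lineage ratio was 1.22 (1.19 to 1.25). Over the 6 secretory-lineage clusters it was 0.88 in cluster 6 at the lowest and 2.62 in cluster 8 at the highest.

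Genes of the NF-kB and IL-1/TNF pathways, which act upstream of the GRO chemokines or beside them, were counted in the same way. In secretory-lineage luminal-like cells 0 of 29 were at least 2-fold higher and 2 lower (1.15% and 1.29% over all genes), with a median log2 ratio of -0.023 against -0.042 over all genes. Their sum stood at 10345 CPM (Ctrl) and 12348 CPM (CL), a log2 ratio of 0.26, and in basal-like cells that of the sum was 0.23. The lowest were Ccl7, a monocyte chemokine, at 2.03 and 0.789 CPM, and the cytokine Il6, at 1.15 and 0.557 CPM, followed by Ptgs2, the inducible cyclooxygenase, at 70.5 and 38.4 CPM. The 8 fibroblast markers in these cells summed to 27.1 and 13.8 CPM, a log2 ratio of -0.98 (-1.13 to -0.82), and their part in the low values was not tested. In hormone-responsive luminal-like cells it was 0 higher and 2 lower of 29 (0.704% and 1.56% over all genes). These were Ptgs2, at 3.25 and 0.614 CPM (log2 ratio -2.41), and Ccl20, a lymphocyte chemokine, at 5.22 and 1.88 CPM (-1.47). Over all retained cells Ptgs2 stood at 49.9 and 26.9 CPM, and the part of free RNA in its low hormone-responsive values was not tested. In basal-like cells 0 of 21 passed in either direction (1.3% and 0.885% over all genes), with Nfkbiz, an NF-kB cofactor, highest at 0.70 and Birc3 and Il1rap lowest at -0.72. In macrophage-like cells 11 of 25 were at least 2-fold lower and 0 higher (5.62% and 10.5% over all genes), with a median of -0.73 against 0.18 over all genes. In the same cells the dissociation stress genes summed to a log2 ratio of -0.95. The basal markers summed to 547 and 47.5 CPM and the erythroid markers to 0 and 427 CPM. Different clusters also made up most of the class in each library. The part of these in the counts was not tested.

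Among the other CXC chemokines, Cxcl10, a ligand of the lymphocyte receptor Cxcr3, stood at 10.8 CPM in Ctrl and 213 CPM in CL in basal-like cells, a log2 ratio of 4.30 (3.85 to 4.79), the highest of the 39 listed genes tested there. Cxcl9, another ligand of that receptor, had a log2 ratio of 4.94 (3.94 to 6.17) in fibroblast-like cells and 3.62 in endothelial-like cells. Cxcl17 in hormone-responsive luminal-like cells was 55.8 and 105 CPM, a log2 ratio of 0.92. Cxcl12, which binds Cxcr4, was lower at -1.93 in the same cells, at only 4.61 and 1.21 CPM. The part of free RNA in these low Cxcl12 values was not tested. In basal-like cells Cxcl12 stood at 154 and 111 CPM, a log2 ratio of -0.47. In fibroblast-like cells the endothelial selectins Sele and Selp had 0 and 1 UMIs in Ctrl and 165 and 141 in CL, and T and NK markers summed to 32.8 and 282 CPM. Their part in the fibroblast-like ratios of the ligands was not tested.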

How the data were processed

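The authors deposited, for each of the 2 libraries, a matrix of raw UMI counts per gene and barcode, made per the labels with Cell Ranger 2.1.1 on mm10, whereas the matrix header names a later release. The annotation is not given in the sources used here. From these counts, the barcodes with most UMIs were taken up to the length of each deposited barcode list (7217 and 10555, Ctrl then CL). That list does not index the matrix columns, so whether these are the authors' cells is not known. A barcode needed 500 genes or more and no more than 15% mitochondrial UMIs to stay (6297 and 9335). Scrublet scores marked 360 doublets in Ctrl. Its automatic threshold marked 0 in CL, so the Ctrl threshold was used there and marked 509, and all were removed. The libraries held 118743318 and 155765480 UMIs in all. Cells were clustered (scanpy 1.11.5, Leiden resolution 1, 2000 variable genes without the listed genes, 30 components) into 34 clusters, of which 31 were named from markers. Levels are UMIs per 1000000 UMIs of a class (CPM), with exact Poisson intervals. Ratios have exact conditional binomial and shares exact Clopper-Pearson intervals (scipy 1.17.1). PCR and sampling of animals are outside these intervals. Genes with at least 50 UMIs in a class over both libraries were compared with 2-fold as the size named. Cells were thinned to the 10th percentile of UMIs of their class where shares were compared. With 1 library per group there was no test. The fold counting was tested on simulated data. The named genes were all 6 members, the 3 highest and 3 lowest listed genes per class and the 5 genes most like each ligand. Other genes named were chosen after their values were seen. The members and lists were chosen with earlier results of these data known. Processing alternatives were 20 planned and 4 added after seeing the data.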

Additional observations from a re-analysis of the deposited data

Results flagged for a closer look

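The Cxcl5 ratios of 2 cell classes had opposite signs under the same contrast. Its log2 ratio of the library labelled CL over the library labelled Ctrl was 0.56 in fibroblast-like cells and -1.18 in hormone-responsive luminal-like cells. Within them the sign was not uniform: fibroblast-like cluster 104 was at -0.35 and cluster 116 at 0.43, both with intervals that include 0, cluster 102 had 0 UMIs in Ctrl and 20 in CL (interval from 1.81 upwards), and hormone-responsive cluster 1 was at 0.11. Each group is 1 library, so the difference between the classes was not tested.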

How the results depend on the processing

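No paired analysis was possible because each group has 1 library. Leaving out a replicate was not possible for the same reason. Over all retained cells, the log2 ratios of Cxcl1, Cxcl2, Cxcl3 and Cxcl5 kept their sign in 11 of the 11 alternatives that moved them and that of Cxcl15 in 10 of 11. The alternatives that only rename cells cannot move these values. Cxcl1 was 0.38 and Cxcl2 0.53 with a minimum of 200 genes per cell, and 0.38 and 0.53 with doublets kept. With at most 5% mitochondrial UMIs they were 0.33 and 0.50 and Cxcl5 was -0.97. As a mean of each cell's CPM, Cxcl1 was 0.34, Cxcl2 0.37 and Cxcl5 -0.091. Relative to the median gene, Cxcl1 was 0.46, Cxcl2 0.62 and Cxcl15 -0.18. Without the large clusters of mostly 1 library, an alternative chosen after seeing the data, Cxcl1 was 0.069, Cxcl2 0.14 and Cxcl15 0.63, the last with its sign turned, and Cxcl15 in hormone-responsive luminal-like cells was 0.32. Under it Cxcl1 and Cxcl2 were both 0.41 in secretory-lineage luminal-like cells, and 0.23 and 0.91 in hormone-responsive luminal-like cells. Without the unnamed clusters, also added later, Cxcl15 was -0.28. Cxcl3 in basal-like cells turned to -0.72 with no mitochondrial limit, and Cxcl15 in fibroblast-like cells to -0.020 with each cell named alone. Basal-like Cxcl2 in CL stood at a log2 ratio of 0.21 over droplets of 50 to 100 UMIs. Apart from the clusters left out, the cause was not tested. Rare members (Cxcl3, Cxcl5, Cxcr2) are limited by counts.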

Other observations

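Unnamed cluster 3, of 186 Ctrl and 568 CL cells, held Cxcl1 at 285 CPM (Ctrl) and 436 CPM (CL), Cxcl2 at 192.5 and 411 CPM and Cxcl15 at 167 and 163 CPM. Its leading genes come from both luminal lineages. Its cells had the highest median doublet score of all clusters, 0.156, and a median of 25800 UMIs, and whether they are doublets was not tested. Unnamed cluster 111, of 37 Ctrl and 44 CL cells led by Fabp4, Myl9, Tagln and Acta2 among others, held Cxcl1 at 1118 and 1708 CPM and Cxcl15 at 14.9 and 6.48 CPM.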
